A study of Mus musculus with 12 samples.

Results

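The interaction of genotype and interleukin 4 (IL-4) was examined in bone-marrow-derived macrophages: for each gene, the log2 response to IL-4 in miR-210 knockout (KO) cells minus the log2 response in wild-type (WT) cells. The contrast uses every library of the study, 12 of 12, as 4 groups of 3. WT M2 were macrophages of C57Bl/6J wild-type mice kept with 20 ng/mL IL-4 for 72 hours. WT M0 were the same cells kept for the same 72 hours without IL-4. The counterparts from mice that lack miR-210 were miR-210 KO M0 and miR-210 KO M2. The deletion was made with a floxed miR-210 allele and a Cre driven by Gata-1, and heterozygous carriers were then bred for KO and WT animals, so the allele is absent from all tissues of a KO mouse and not from macrophages only. All 4 groups started from bone-marrow monocytes isolated by negative selection. Before the 72 hours they were cultured for 7 days in the presence of 20% FBS and 30% L929 conditioned medium. The conditioned medium was the source of the macrophage growth factor M-CSF (L929 is a line of mouse fibroblasts). Donor age and sex, the number of mice behind a library, and whether the 3 libraries of a group are separate mice or cultures are not given in the sources used here, so p-values measure the spread between these libraries, which may in part be technical. The labels give each group a batch name of its own, and batch and group cannot be told apart.

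IL-4 binds its receptor on macrophages, activates the kinases JAK1 and JAK3 and the transcription factor STAT6, and switches on a program known as alternative or M2 activation, whose classical products are the arginase ARG1, the secreted proteins RELMα (Retnla) and Ym1 (Chil3) and the mannose receptor CD206 (Mrc1). miR-210 is a microRNA best known as a product of hypoxia-inducible factor, and it represses messenger RNAs that pair with its seed, the short stretch near its 5′ end. A gene whose IL-4 response is the same with and without miR-210 has an interaction of 0, a negative value means a weaker rise or a deeper fall in KO, and a positive value means a stronger rise or a shallower fall.

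The mature sequences of the deleted microRNA are shown because the genotype is defined by their loss; capitals mark the seed, bases 2 to 8. RefSeq places them on the minus strand of GRCm38.p6 at chr7:141221407-141221428 and chr7:141221445-141221466.
mmu-miR-210-3p: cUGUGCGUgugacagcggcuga
mmu-miR-210-5p: aGCCACUGcccaccgcacacug

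Library totals lay between 7930525 and 10167695 counts (median 9157613), and all 6 KO libraries had 0 counts of the Mir210 gene (GRCm39, chr7:140801297-140801406) while the 6 WT libraries had 1 to 5. All 9 macrophage markers passed the filter on low counts, with up to 53643 counts in a library. Markers of other cells were low: no more than 33 counts for neutrophil genes, 47 for T cell genes, 102 for B cell genes, 25 for erythroid genes, 16 for fibroblast genes, 143 for dendritic cell genes, 39 for mast cell and basophil genes and 295 for endothelial genes, and Ly6g, Cd3e, Cd3g, Ms4a1, Fcer1a and Prss34 were at 0 in every library. KO M0 library 3 stood apart in immediate early genes: 10 genes were over 4-fold above both other KO M0 libraries, among them Egr1 (2407 normalized counts against 29.2 and 26.7) and Fos (8246 against 744 and 726). Values without this library are given for part of the genes and lists below. Others moved as well, among them Maff (interaction -1.5 with the library and -1.30 without) and H1f1 (-0.92 and -0.73).

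Of 14825 genes tested, none had an interaction at an adjusted p under 0.05 in edgeR's quasi-likelihood test (0%), and the smallest adjusted p was 0.075. At an unadjusted p under 0.05, which is a ranking and not a call, 724 genes lay below 0 (4.88%) and 603 above 0 (4.07%), 1327 in all. The DESeq2 Wald test on the same contrast called 92 genes, 65 below 0 (0.438%) and 27 above 0 (0.182%), and all 92 were among the 1327. limma-voom called 0. Single libraries decided the edgeR count: it was 77 without KO M0 library 2 and 65 without WT M0 library 2, 5, 2 and 1 without WT M0 library 1, KO M0 library 3 and WT M2 library 2, and 0 without any of the other 7. Without a filter on low counts it was 341 of 28668. In simulated counts with the spread of these libraries, edgeR recovered 64.5% of genes given an interaction of 1 on the log2 scale and 10.5% of genes given 0.5, and of its calls 4.44% and 8.7% were false. DESeq2 recovered 64% and 21.5%, with 7.25% and 17.3% of its calls false. The genes below are therefore described by their values, with the DESeq2 call named where there is one.

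IL-4 itself moved a large part of the transcriptome in both genotypes. In WT, 3113 genes (21.0%) rose and 2945 (19.9%) fell, and in KO 2734 (18.4%) rose and 2562 (17.3%) fell, each at an adjusted p under 0.05 in edgeR and a change of more than 1.2-fold. Averaged over the genotypes, 2019 genes (13.6%) changed at least 2-fold, 1207 upward and 812 downward. Of these 2019, 1278 (63.3%) had a smaller response in KO than in WT, against 57.6% of all genes tested. The share was 62.9% among the genes that rose and 63.9% among those that fell. Of the 92 genes called by DESeq2, 64 had the response of smaller absolute size in KO and 28 the larger, and 14 of the 92 had responses of opposite sign in WT and KO. The plot of both responses shows the genes on both sides of the line of equal response.

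**Figure D1:**
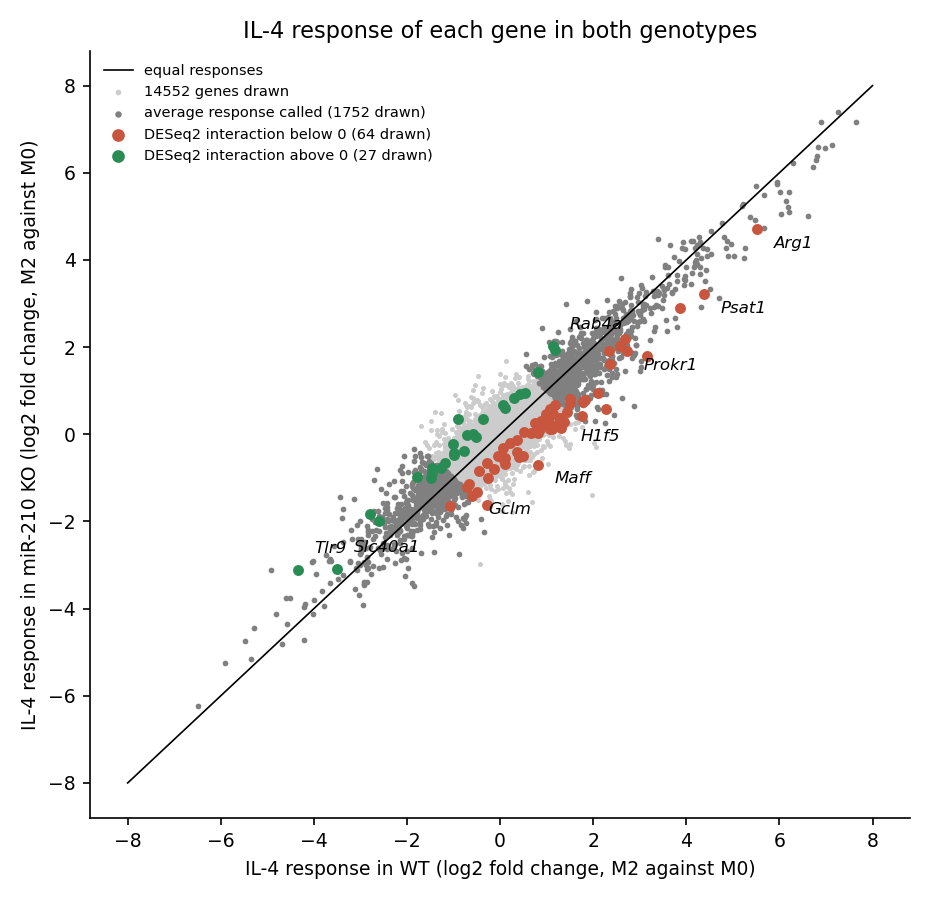
IL-4 response of each gene in WT (horizontal axis) and in miR-210 KO (vertical axis), both as log2 fold change of M2 against M0; the line marks equal responses, grey points are genes (dark where the average response was called), and coloured points are the DESeq2 interaction calls below 0 (red) and above 0 (green), with genes left out where a group had no more than 3 counts in any library or a response passed 8. Most genes lie along the line, and the 64 drawn calls below 0 include Arg1, Psat1 and Prokr1, which rose in both genotypes but less in KO.

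KO and WT mostly lay further apart without IL-4 than with it. For 77 of the 92 DESeq2 calls the distance between KO and WT was larger in M0 than in M2, with a median absolute log2 difference of 0.50 in M0 and 0.19 in M2, and the same held for 901 of the 1327 genes and for 8507 of all 14825. KO and WT differed at an adjusted p under 0.05 in edgeR for 249 genes in M0 (1.68%) and 60 in M2 (0.405%). In M0, 122 of the 14825 genes were called higher in KO and 127 lower. The interaction and these differences share the same libraries, so they are parts of 1 pattern and not separate evidence. M0 libraries also mostly spread more within their groups, with a root mean square deviation of 0.178 to 0.236 (log2), against 0.174 to 0.208 in M2. Spread widens absolute differences, and its share in the larger M0 distance was not tested.

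Each library was also placed along the average IL-4 response over the 2019 genes, on a scale where the mean of the 6 M0 libraries is 0 and that of the 6 M2 libraries is 1. The 3 WT M0 libraries lay at -0.0157, -0.0034 and -0.018, and the 3 KO M0 libraries at 0.0205, 0.01 and 0.0066. The WT M2 libraries lay at 1.0029, 1.0201 and 1.0438, and the KO M2 libraries at 0.9788, 0.9668 and 0.9877. KO libraries were thus nearer to the middle than WT libraries in both states, with no overlap in either, and the KO response was 93.3% of the WT response (0.9654 against 1.0346, with SDs of 0.0073 to 0.0205 within groups). This is a description over genes chosen by their average response, and no test was run on it.

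**Figure D2:**
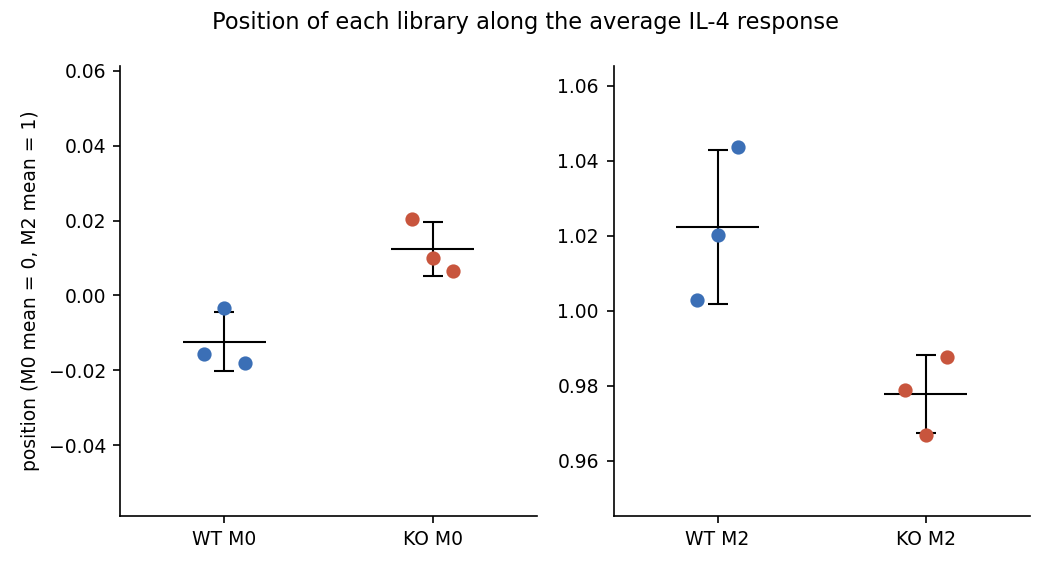
Position of each library along the average IL-4 response (no unit; the M0 mean is 0 and the M2 mean is 1), M0 on the left and M2 on the right, with the mean and SD of 3 libraries per group; both panels span the same length of axis. KO M0 libraries lie above WT M0 libraries and KO M2 libraries below WT M2 libraries.

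The most uniform group among the smaller responses was the replication-dependent histones, the genes that supply histone proteins while DNA is copied and whose messenger RNAs end in a stem-loop and not a poly(A) tail. Of 58 tested (67 in the list), 57 had an interaction below 0 and 41 had an unadjusted p under 0.05 below 0 (70.7%, against 4.88% of all genes), and none had one above 0. DESeq2 called 19 of them below 0, against 65 of all 14825 genes. Their median response to IL-4 was 0.84 in WT and 0.18 in KO on the log2 scale, against -0.01 in both genotypes for all genes, and the median interaction was -0.62 (-0.73 to -0.55 when each library was left out in turn). In edgeR 44 of the 58 rose in WT and 20 rose in KO. The KO libraries were already higher before IL-4: the median KO against WT difference was 0.45 in M0 and -0.16 in M2. In M0, 22 of the 58 were called higher in KO and 2 lower, against 122 and 127 of all 14825 genes.

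H1f5, which encodes a linker histone (ENSMUSG00000058773, chr13:21964053-21964795), went from 161, 201 and 126 normalized counts in WT M0 to 419, 448 and 390 in WT M2. In KO it had 357, 267 and 329 in M0 and 389, 398 and 360 in M2. The WT groups were far apart, the KO groups did not overlap but nearly touched, and all KO M0 libraries were above all WT M0 libraries. The interaction was -1.09 ± 0.19 (SE; 95% interval -1.49 to -0.69), with an adjusted p of 0.095 in edgeR and 0.00075 in DESeq2. It ranged from -1.30 to -0.93 when 1 library was left out, and edgeR called it without WT M0 library 2 and without KO M0 library 2. H3c1, a histone H3 gene (chr13:23945836-23946369), had 243, 313 and 211 in WT M0, 543, 591 and 535 in WT M2, 446, 373 and 542 in KO M0, and 487, 493 and 502 in KO M2, so the KO groups overlapped and the WT groups did not. H2bc15 (interaction -0.96 ± 0.17), H2ac6 (-0.79 ± 0.15), H2bc13 (-1.02 ± 0.20) and H1f1 (-0.92 ± 0.20) also had the smaller response in KO, with adjusted p of 0.0015, 0.0066, 0.0097 and 0.012 in DESeq2.

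Histone genes resemble each other, and 27 of the 58 share over 50% of the 50-base stretches of their longest transcript with another gene (median 49.4%), so reads may have been counted on a neighbour or not at all. The 7 genes with under 10% shared, H1f1, H1f2, H1f3, H1f5, H2bc21, H4c14 and H4c16, were all below 0 with a median interaction of -0.36, and 3 of them had an unadjusted p under 0.05. The least affected members were H2bc21 (-0.06), H3c15 (-0.04) and H2ac25, the only member above 0 (0.31). Members of the list were thus spread over more than 1 unit on the log2 scale while nearly all lay on the same side, as the plot of the histone genes shows.

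**Figure D3:**
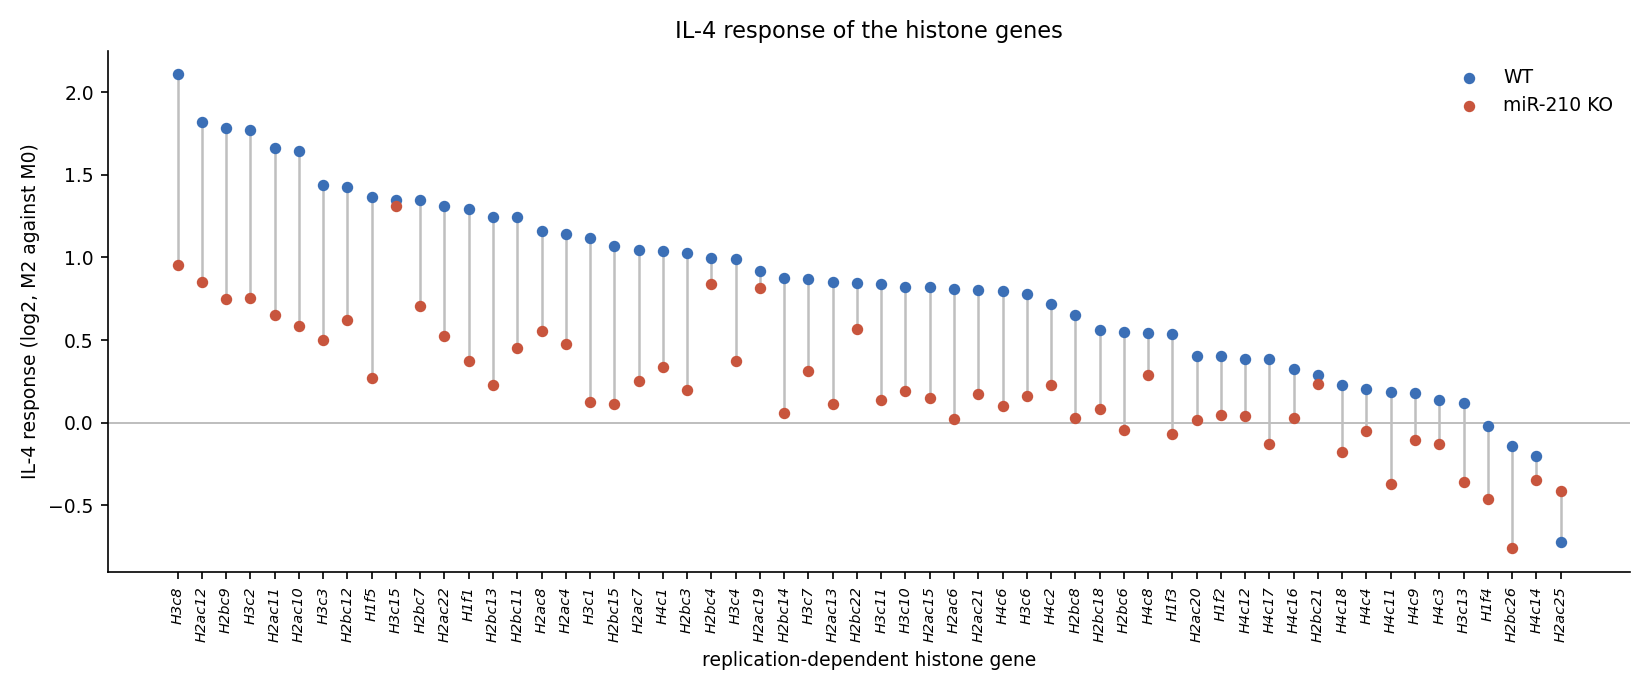
IL-4 response (log2, M2 against M0) of each of the 58 replication-dependent histone genes tested, in WT and in miR-210 KO, ordered by the WT response, with a line joining both values of a gene. The KO point lies below the WT point for 57 genes and above it for 1.

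The promoter of H1f5 is shown because H1f5 had the smallest unadjusted p of the histone genes in edgeR; capitals mark matches to the CCAAT box (CCAAT) and the TATA box (TATAAA), searched on both strands, in the 250 bases before and 50 after the start site (RefSeq, GRCm38.p6, minus strand, chr13:21780576-21780875). Of the 58 genes, 50 had a promoter in the table, and 42 of them (84.0%) held CCAAT against 41.1% of all 27025 genes with a promoter in the table, and 31 (62.0%) held TATAAA against 15.7%. Of 12 H2B promoters matched, 6 (50%) held the octamer ATTTGCAT, against 1.97% of all genes. A match in a window describes the letters and not a bound factor.
H1f5: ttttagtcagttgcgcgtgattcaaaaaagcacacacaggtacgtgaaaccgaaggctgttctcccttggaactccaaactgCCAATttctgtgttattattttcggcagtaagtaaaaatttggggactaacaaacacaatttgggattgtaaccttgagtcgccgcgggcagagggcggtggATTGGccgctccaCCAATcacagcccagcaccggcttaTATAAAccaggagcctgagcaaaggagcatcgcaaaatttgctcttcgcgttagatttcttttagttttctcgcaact

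Other genes of the cell division cycle leaned the same way with fewer members past the threshold. Among 57 G2/M and mitosis genes, 48 lay below 0, 9 had an unadjusted p under 0.05 below 0 and 2 above 0, and the median interaction was -0.29 (-0.48 to -0.17 with 1 library left out). IL-4 raised 40 of the 57 in WT and 23 in KO, and their median response was 0.71 in WT and 0.42 in KO. Of 45 S-phase genes, 36 lay below 0, 8 had an unadjusted p under 0.05 below 0 and none above, and the median was -0.25. Their median response was 0.07 in WT and -0.28 in KO. Of 20 G1 cyclins, CDKs and inhibitors, 2 lay below (10%) and 1 above 0 (5%) at that threshold. For all genes the shares were 4.88% and 4.07%, so the G1 list lay near them. These counts depended on single libraries: without WT M0 library 2 there were 29 of 57 and 22 of 45 below 0, without WT M0 library 3 there were 3 of 57, and without WT M0 library 1 there were 2 of 45. Without KO M0 library 3 they were 17 of 57 and 13 of 45. For the G1 list the count below 0 was 6 of 20 without WT M0 library 2.

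Ccna2, cyclin A2, had 69.1, 136 and 75.4 normalized counts in WT M0, 265, 281 and 239 in WT M2, 251, 229 and 144 in KO M0, and 327, 305 and 293 in KO M2. It rose in both genotypes, by 1.47 in WT and 0.57 in KO, and its interaction was -0.90 ± 0.29 (adjusted p = 0.31 in edgeR). The 4 cell-cycle genes that the study picks out for polarization were followed because of that choice, which was made on these samples. Cdca2, Cdc20 and Cdc25b rose in WT, by 0.65, 1.57 and 0.40, and so did Cdc25c, by 1.62. In KO the responses were 0.25, 0.69, 0.17 and 0.86, of which those of Cdc20 and Cdc25c passed the edgeR test. The interactions were -0.40 ± 0.26, -0.88 ± 0.34, -0.22 ± 0.15 and -0.76 ± 0.49, and none passed adjustment, so a call in WT without one in KO is not shown to be a difference for Cdca2 and Cdc25b. Cdc20, an activator of the anaphase-promoting complex, had the lowest unadjusted p of the 4 (0.019), and its KO M0 libraries (38.3, 26.7 and 38.8) overlapped the WT M0 libraries (28.8, 19.6 and 14.7).

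Arg1, which hydrolyses arginine to ornithine and urea and is the best known enzyme of alternative activation (ENSMUSG00000019987, chr10:24791118-24803817), reached the same level in both genotypes after IL-4: 17569, 17371 and 16293 normalized counts in WT M2 and 16898, 17374 and 18176 in KO M2. Before IL-4 it had 460, 344 and 313 in WT M0 and 662, 571 and 769 in KO M0, with no overlap (KO against WT 0.85, adjusted p = 0.0016 in edgeR). The response was 5.53 ± 0.13 (SE) in WT and 4.71 ± 0.13 in KO. The interaction was -0.81 ± 0.16 (adjusted p = 0.095 in edgeR and 0.0015 in DESeq2). Leaving out 1 library moved it between -0.99 and -0.70, and edgeR called it without WT M0 library 1 and without KO M0 library 2.

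Of 19 genes of arginine and polyamine metabolism, 6 had an unadjusted p under 0.05 below 0 (31.6%, against 4.88% of all genes) and none above. The count below 0 was 9 without KO M0 library 2, and the median interaction was -0.16. Azin1, which stabilizes ornithine decarboxylase by binding its antizyme, rose in WT by 0.74 and had a response of 0.26 in KO (interaction -0.48 ± 0.11, adjusted p = 0.024 in DESeq2). Slc7a1, an arginine importer, and Srm, spermidine synthase, had interactions of -0.68 and -0.49. Slc7a2, the cationic amino acid transporter that IL-4 induces, did not follow: its response was 7.25 in WT and 7.39 in KO.

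As a list, the alternative activation genes responded in both genotypes. Of 21 genes tested, 20 rose in WT and 20 in KO (21.0% and 18.4% of all genes), with median fitted responses of 6.79 and 6.29. An unadjusted p under 0.05 was found for 4 below 0 (19.0%) and 1 above (4.76%), against 4.88% and 4.07% of all genes. The median interaction was -0.20 (-0.14 without KO M0 library 3). These medians include members at or near 0 counts in M0, such as Retnla. The fitted folds of such members depend on the prior count, so the medians are not measured sizes of a response. Retnla had 0 counts in all 6 M0 libraries, and 3520, 4288 and 3900 normalized counts in WT M2 and 4347, 3511 and 2451 in KO M2, which overlap. Chil3 was at 0 in 5 of the 6 M0 libraries and had 15606, 16344 and 15311 in WT M2 and 13244, 13308 and 13239 in KO M2. No fold is given for these, since the fitted value then depends on the prior count. Mrc1 rose by 0.61 in WT and 0.89 in KO (interaction 0.28 ± 0.14, adjusted p = 0.59 in edgeR). Tgm2, a transglutaminase that crosslinks proteins, rose by 2.35 and 1.91 and was called by DESeq2 (interaction -0.44 ± 0.12, adjusted p = 0.049). Fn1, fibronectin, rose by 9.68 and 9.22 from 10.4 to 29.3 normalized counts in the M0 libraries to between 14094 and 18759 in the M2 libraries.

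The plot of normalized counts per library shows 12 of the genes described here and below.

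**Figure D4:**
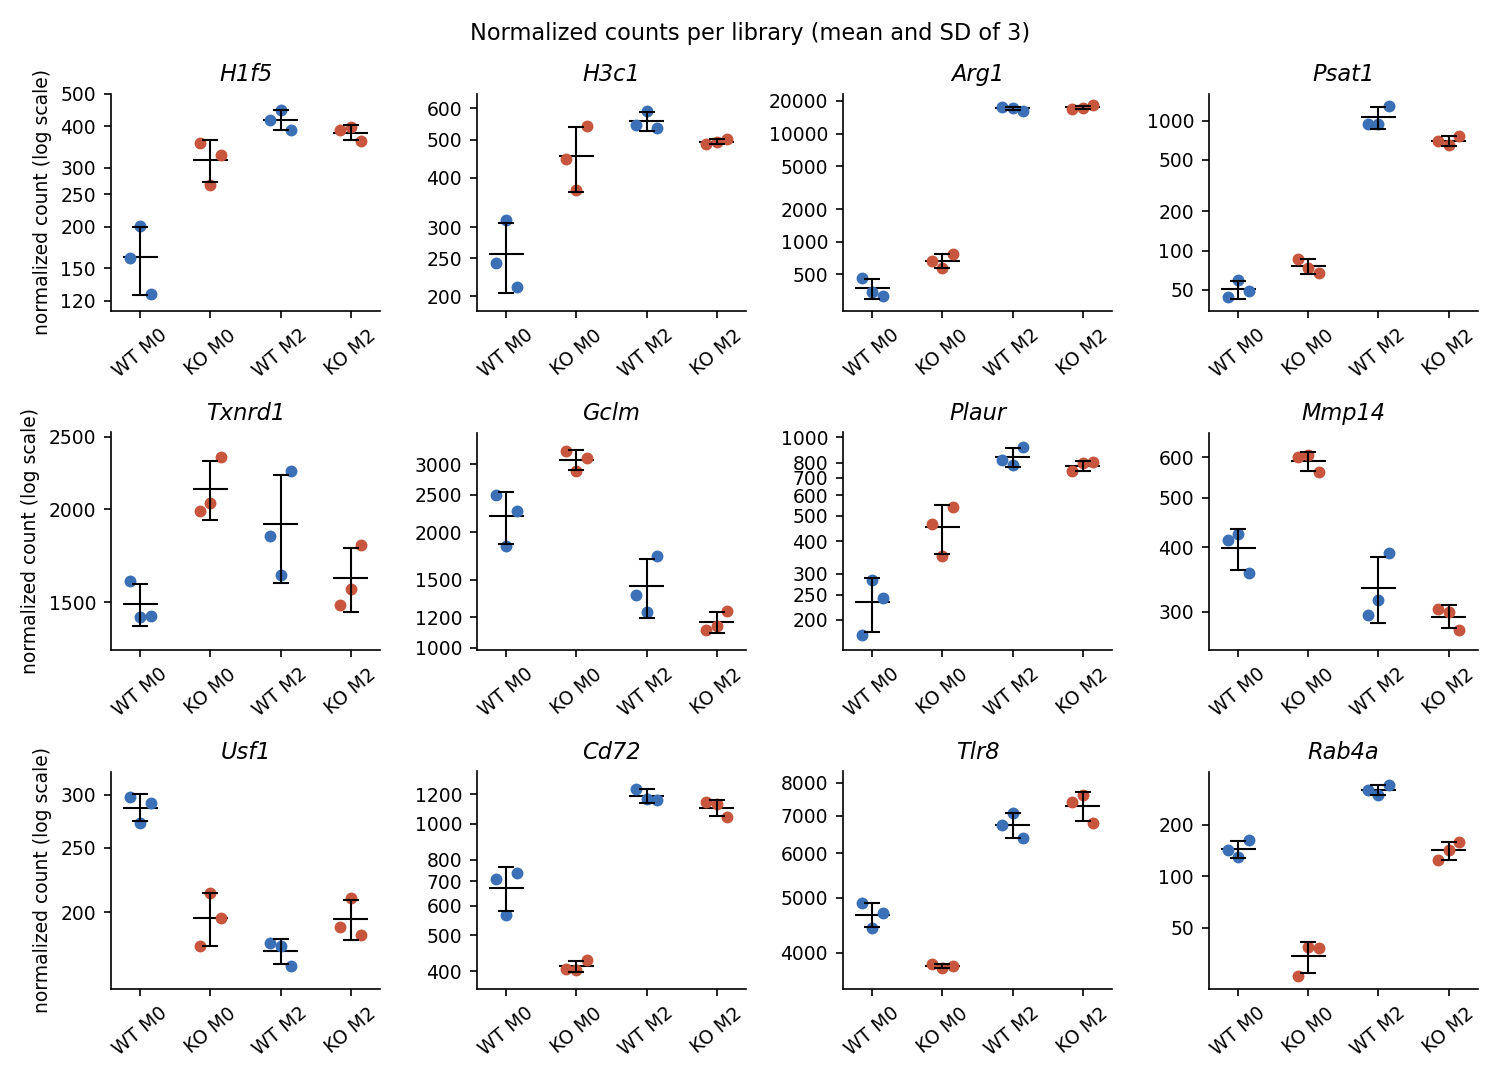
Normalized counts (log scale) of 12 genes in each library of WT M0, KO M0, WT M2 and KO M2, with the mean and SD of 3 libraries. For Arg1, H1f5, H3c1 and Plaur the genotypes lie apart in M0 and close in M2, while for Psat1 they lie apart in both.

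Psat1, phosphoserine aminotransferase of the serine synthesis pathway (ENSMUSG00000024640, chr19:15882039-15924701), was a gene whose M2 level also differed. It had 43.8, 58.9 and 48.7 normalized counts in WT M0, 86.7, 73.3 and 66.8 in KO M0, 944, 950 and 1299 in WT M2 and 692, 648 and 764 in KO M2. The KO libraries were all above WT in M0 and all below WT in M2 (KO against WT in M2 -0.60, adjusted p = 0.021 in edgeR). The response was 4.38 in WT and 3.22 in KO, and the interaction was -1.17 ± 0.23 (95% interval -1.64 to -0.69; adjusted p = 0.095 in edgeR and 0.0015 in DESeq2).

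Psat1 belongs to the genes that ATF4 controls in the integrated stress response, which supplies amino acids when translation is limited. Of 31 such genes tested, 29 lay below 0, 15 had an unadjusted p under 0.05 below 0 (48.4%) and none above, and the median interaction was -0.36 (-0.50 to -0.29 with 1 library left out). Their median response was 0.28 in WT and -0.06 in KO, and the median KO against WT difference was 0.15 in M0 and -0.25 in M2. Chac1, which degrades glutathione, rose by 3.17 in WT and 1.73 in KO (interaction -1.44, and -0.97 without KO M0 library 3), from 11.2 to 32.5 normalized counts in the M0 libraries to 112, 120 and 174 in WT M2 and 81, 49.3 and 80.5 in KO M2. Asns, asparagine synthetase, rose by 1.12 in WT and had a response of 0.44 in KO. Trib3, a pseudokinase, had a response of 0.02 in WT and fell by 0.93 in KO. None of these 3 passed adjustment in edgeR (adjusted p = 0.32, 0.40 and 0.29), and DESeq2 gave Chac1 no adjusted p and did not call the other 2. The count below 0 was 22 of 31 without KO M0 library 2 and 10 without WT M2 library 3. Of 26 promoters matched for this list, 11 (42.3%) held the C/EBP-ATF element TGATGNAA on either strand, against 4.51% of all genes. Of 23 genes of ER chaperones and the unfolded protein response, 4 lay below 0 at the same threshold (17.4%, against 4.88% of all genes), with a median of -0.10. The count was 1 without KO M0 library 1 and 7 without KO M0 library 2.

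A second group differed by a deeper fall in KO or by no rise: the targets of NRF2, the transcription factor of the antioxidant response, with the glutathione, thioredoxin and metallothionein genes. Of 26 genes tested, 24 lay below 0, and 16 had an unadjusted p under 0.05 below 0 (61.5%, against 4.88% of all genes) and none above. DESeq2 called 6 of the 26 below 0, against 65 of all 14825 genes. The median response of the list was 0.03 in WT and -0.39 in KO, and the median interaction was -0.45 (-0.49 to -0.36 with 1 library left out). In M0, 10 of the 26 were called higher in KO, against 122 of all 14825 genes, with a median difference of 0.33. The median in M2 was -0.09.

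Txnrd1, thioredoxin reductase (ENSMUSG00000020250, chr10:82669785-82733546), went from 1601, 1434 and 1437 normalized counts in WT M0 to 1843, 1629 and 2251 in WT M2. In KO it had 1989, 2040 and 2351 in M0 and 1489, 1561 and 1792 in M2. The groups were separate in both genotypes and in opposite order, a response of 0.36 in WT and -0.40 in KO. The interaction was -0.75 ± 0.15 (adjusted p = 0.095 in edgeR and 0.0035 in DESeq2). Gclm, the modifier subunit of the enzyme that starts glutathione synthesis (chr3:122039126-122065061), fell in both, from 2502, 1837 and 2263 to 1371, 1241 and 1733 in WT and from 3258, 2884 and 3119 to 1113, 1135 and 1244 in KO, with responses of -0.60 and -1.41 (interaction -0.80 ± 0.16, adjusted p = 0.0039 in DESeq2).

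Srxn1, sulfiredoxin, had a response of 0.10 in WT and fell by 0.68 in KO (interaction -0.78 ± 0.17), and Gsr, glutathione reductase, fell in both, with responses of -1.08 and -1.65 (-0.57 ± 0.13). Mt2, a metallothionein that binds zinc and copper, fell in both as well, with responses of -0.51 and -1.31 (-0.81 ± 0.16), and Pgd, which makes NADPH in the pentose phosphate pathway, had a response of -0.06 in WT and fell by 0.50 in KO (-0.44 ± 0.10). The adjusted p in DESeq2 was 0.0062, 0.025, 0.0056 and 0.0076 in that order. Slc7a11, the cystine importer, had 1203, 652 and 681 in WT M0 against 1485, 1552 and 1650 in KO M0, and its interaction of -1.23 ± 0.26 was not called by either tool. The list was not uniform: Hmox1, heme oxygenase and also an NRF2 target, fell in both, with responses of -0.89 in WT and -0.85 in KO (interaction 0.05 ± 0.14), and Nqo1 had an interaction of -0.56 ± 0.32.

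Both promoters below are shown because these genes had the smallest adjusted p of the NRF2 list in DESeq2; capitals mark the core of the antioxidant response element, TGACNNNGC, found on either strand (RefSeq, GRCm38.p6, plus strand, chr3:122245307-122245606 for Gclm and chr10:82858956-82859255 for Txnrd1). The match begins 134 bases before the start site in Gclm and 92 bases before it in Txnrd1. Of 23 promoters matched for the list, 10 (43.5%) held the core, against 14.0% of all genes.
Gclm: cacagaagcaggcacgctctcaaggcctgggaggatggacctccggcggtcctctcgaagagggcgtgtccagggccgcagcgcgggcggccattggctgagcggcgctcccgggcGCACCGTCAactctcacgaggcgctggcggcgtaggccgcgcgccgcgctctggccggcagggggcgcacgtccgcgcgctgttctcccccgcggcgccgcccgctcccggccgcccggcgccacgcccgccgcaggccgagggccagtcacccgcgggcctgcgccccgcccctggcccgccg
Txnrd1: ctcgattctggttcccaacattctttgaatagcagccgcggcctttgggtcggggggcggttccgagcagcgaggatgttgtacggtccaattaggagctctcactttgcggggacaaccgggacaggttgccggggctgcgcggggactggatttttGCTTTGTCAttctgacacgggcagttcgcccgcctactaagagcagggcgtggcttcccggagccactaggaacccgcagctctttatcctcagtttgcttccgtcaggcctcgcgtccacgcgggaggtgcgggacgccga

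Genes of hypoxia and glycolysis, the pathway miR-210 is best known for, showed small differences in 1 direction. Of 31 tested, 28 lay below 0. An unadjusted p under 0.05 was found for 11 below 0 (35.5%, against 4.88% of all genes) and none above. The median interaction was -0.16 (-0.21 to -0.12 with 1 library left out). Slc2a1, the glucose transporter GLUT1, had 639, 764 and 765 normalized counts in WT M0, 1370, 1369 and 1659 in WT M2, 1002, 822 and 1130 in KO M0 and 1167, 1226 and 1364 in KO M2. It rose by 1.02 in WT and 0.35 in KO (interaction -0.67 ± 0.16, adjusted p = 0.023 in DESeq2). Slc16a3, the lactate exporter MCT4, had a response of -0.14 in WT and fell by 0.79 in KO (-0.65 ± 0.14, adjusted p = 0.0087 in DESeq2). Pkm, pyruvate kinase, had responses of 0.21 and -0.21 (-0.41 ± 0.10, adjusted p = 0.025 in DESeq2). Vegfa, an angiogenic growth factor, fell in KO, where its response was -1.03, with an interaction of -0.72, which was -0.47 without KO M0 library 3. Ldha, lactate dehydrogenase, rose by 0.40 in WT and had a response of 0.25 in KO, and its interval of the interaction reached from -0.36 to 0.06.

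The plasminogen and matrix protease systems, which macrophages use during repair, held several of the leading genes. Plaur, the urokinase receptor (chr7:24161875-24175394), had 175, 283 and 243 normalized counts in WT M0, 817, 784 and 914 in WT M2, 467, 351 and 541 in KO M0 and 740, 795 and 801 in KO M2. It rose by 1.83 in WT and 0.78 in KO, and all KO M0 libraries were above the WT M0 libraries (interaction -1.05 ± 0.20, adjusted p = 0.0015 in DESeq2). Of 13 genes of coagulation and plasminogen activation, 3 lay below 0 at the unadjusted threshold (23.1%, against 4.88% of all genes). None lay above 0 at that threshold, and the median was -0.26.

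Mmp14, a membrane-bound collagenase (chr14:54668878-54682821), had 414, 424 and 357 in WT M0, 296, 316 and 390 in WT M2, 599, 606 and 561 in KO M0 and 304, 300 and 276 in KO M2. Its WT groups overlapped and its KO groups were apart, with a response of -0.25 in WT and -1.0 in KO (interaction -0.75 ± 0.14, adjusted p = 0.095 in edgeR and 0.0042 in DESeq2). Mmp8, the neutrophil collagenase, had a response of 0.09 in WT and fell by 0.59 in KO (-0.68 ± 0.17, adjusted p = 0.029 in DESeq2). Of 26 matrix, protease and growth factor genes, 11 lay below 0 (42.3%) and 1 above 0 (3.85%) at the unadjusted threshold. The shares of all genes were 4.88% and 4.07%. The median of the list was -0.24, and -0.11 without KO M0 library 3. Hbegf, a ligand of the EGF receptor, rose by 5.67 in WT and 4.73 in KO, and Pdgfb by 2.38 and 1.75. The gelatinase Mmp9 rose by 2.35 and 1.52 and the elastase Mmp12 by 2.14 and 1.61, with WT M2 above KO M2 in every library for Mmp12 (25209 to 32604 against 21790 to 24387). None of these 4 was called by DESeq2 (adjusted p = 0.18, 0.27, 0.51 and 0.067).

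The inflammatory cytokine, NF-κB and immediate early list depended on single libraries. Of 29 tested, 10 lay below 0 (34.5%, against 4.88% of all genes) and none above at the unadjusted threshold, with a median interaction of -0.55. Without KO M0 library 3 the median was -0.14, and 7 lay below 0 and 3 above. Without KO M0 library 2 there were 18 below 0. Without KO M0 library 3, Egr1 changed sign, from -2.54 to 2.33, and Fos from -1.64 to 0.49. Tnf was less dependent: 480, 791 and 778 normalized counts in WT M0, 482, 446 and 847 in WT M2, 1000, 732 and 1242 in KO M0 and 348, 325 and 386 in KO M2. It fell by 1.49 in KO and had a response of -0.22 in WT (interaction -1.27 ± 0.32, adjusted p = 0.19 in edgeR), and -1.08 without KO M0 library 3. Il1rn, the interleukin 1 receptor antagonist, fell by 0.66 in KO with a WT response of 0.27 (-0.92 ± 0.24, -0.91 without the library). Cxcl2, a neutrophil chemokine, went from -2.05 to -0.79 without it, and Cxcl5 from -1.90 to -1.70. Of 21 chemokines and chemokine receptors, 6 lay below 0 (28.6%) and 2 above 0 (9.52%) at the unadjusted threshold, with a median of -0.07. The shares of all genes were 4.88% and 4.07%. Without KO M0 library 3 the chemokine median was 0.06, with 6 below 0 and 3 above.

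The single gene with the smallest p was Prokr1, a G protein-coupled receptor for prokineticins (ENSMUSG00000049409, chr6:87555573-87567730). It had 137, 123 and 124 normalized counts in WT M0, 207, 193 and 177 in KO M0, 878, 775 and 882 in WT M2 and 689, 714 and 751 in KO M2, so KO libraries were all higher than WT before IL-4 and all lower after it. The response was 2.73 ± 0.09 (SE) in WT and 1.90 ± 0.09 in KO, and the interaction was -0.82 ± 0.12 (95% interval -1.09 to -0.56; adjusted p = 0.075 in edgeR and 0.00075 in DESeq2). edgeR called it in 5 of the 12 fits that leave out 1 library, those without WT M0 library 1 or 2, KO M0 library 2 or 3, or WT M2 library 2.

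Several other genes had a lower response in KO. Rnf128, a ubiquitin ligase of the endosome, had 2099, 1644 and 1849 in WT M0 against 2532, 2327 and 2455 in KO M0, and rose by 1.07 and 0.46 (interaction -0.61 ± 0.12). Gmppb, which makes GDP-mannose for glycosylation, rose by 1.05 in WT and had a response of 0.17 in KO (-0.87 ± 0.17). Ptgir, the prostacyclin receptor, rose by 1.5 and 0.72 (-0.78 ± 0.16), and Slco4a1, an organic anion transporter, rose by 1.30 in WT with a response of 0.15 in KO (-1.15 ± 0.25). Maff, a small MAF transcription factor, reversed: it rose by 0.80 in WT and fell by 0.70 in KO (-1.5 ± 0.30). DESeq2 called all 5, with adjusted p of 0.0032, 0.018, 0.0056, 0.0062 and 0.0062, and edgeR gave 0.095 to 0.12.

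Positive interactions were fewer among the calls. The lists with the highest medians were the interferon lists, of which the type I interferon-stimulated genes are the antiviral effectors downstream of interferon α and β. Of 38 tested, 34 lay above 0, 9 had an unadjusted p under 0.05 above 0 (against 4.07% of all genes) and none below, and DESeq2 called none. The count above 0 was 6 without WT M2 library 1 and 19 without WT M0 library 2. IL-4 lowered 37 of them in WT and 36 in KO, and the medians were -1.56 and -1.52. The median of the interactions was 0.27 (0.14 to 0.38 with 1 library left out). In M0, 13 of the 38 were called lower in KO, against 127 of all 14825 genes, with a median difference of -0.44. The median in M2 was -0.19. The interferon γ and guanylate-binding protein list had 4 of 19 above 0 at that threshold (21.1%) and none below. The count above 0 was 3 without WT M0 library 1 and 9 without WT M0 library 2. The median was 0.34 (0.18 to 0.48 with 1 library left out), and 5 of the 19 were called lower in KO in M0.

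Isg15, a ubiquitin-like modifier (ENSMUSG00000035692, chr4:156283883-156285303), had 385, 288 and 366 normalized counts in WT M0, 154, 196 and 207 in KO M0, 48, 37.2 and 59.4 in WT M2 and 38.8, 50.2 and 39.7 in KO M2. The M0 groups were apart and the M2 groups overlapped, with a fall in both genotypes and responses of -2.85 in WT and -2.10 in KO (interaction 0.75 ± 0.27, adjusted p = 0.36 in edgeR and 0.27 in DESeq2). Gbp5, a guanylate-binding protein, had 141, 126 and 103 in WT M0 against 51.4, 53.4 and 56.8 in KO M0, and fell with a response of -2.03 in WT and -1.19 in KO. Parp14, an ADP-ribosyltransferase, fell with responses of -1.34 and -0.94. DESeq2 gave Gbp5 no adjusted p and did not call Parp14.

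The promoter of Isg15 is shown for this list; capitals mark matches to the core of the interferon-stimulated response element, TTTC repeated with any 2 bases between, on either strand (RefSeq, GRCm38.p6, minus strand, chr4:156200769-156201068). The 3 matches overlap and begin 78, 72 and 66 bases before the start site. Of 26 promoters matched for the list, 16 (61.5%) held the core, against 3.99% of all genes.
Isg15: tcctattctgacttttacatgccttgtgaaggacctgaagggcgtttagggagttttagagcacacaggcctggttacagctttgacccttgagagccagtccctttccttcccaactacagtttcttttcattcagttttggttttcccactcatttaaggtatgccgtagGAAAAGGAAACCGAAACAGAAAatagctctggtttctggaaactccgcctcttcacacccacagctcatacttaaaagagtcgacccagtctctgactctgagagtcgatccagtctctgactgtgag

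Among single genes with a positive interaction, Usf1, a basic helix-loop-helix transcription factor (chr1:171238847-171247913), had 298, 272 and 291 normalized counts in WT M0, 180, 178 and 166 in WT M2, 178, 214 and 196 in KO M0 and 190, 210 and 185 in KO M2. It fell by 0.71 in WT and its KO response was -0.01 (interaction 0.71 ± 0.14, adjusted p = 0.095 in edgeR and 0.018 in DESeq2). Ehd4, which acts in endosomal recycling, fell by 0.52 in WT with a KO response of -0.05, and Arhgef3, a guanine nucleotide exchange factor, fell in both, with responses of -0.98 and -0.43. Slc40a1, the iron exporter ferroportin, fell in both, with responses of -3.50 and -3.08, with M2 levels of 312, 327 and 322 in WT and 494, 441 and 442 in KO. Tlr9, a sensor of DNA, had responses of -4.34 and -3.10. Its M2 counts were low and overlapped, at 11.7, 14.3 and 16.8 in WT and 35.5, 15.2 and 18.1 in KO. The Tlr9 interaction was 1.24 ± 0.33 (adjusted p = 0.2 in edgeR), and 0.79 to 1.49 with 1 library left out. DESeq2 called these 4, with adjusted p of 0.0015, 0.0082, 0.041 and 0.047.

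Larger rises in KO included that of Cd72, an inhibitory lectin-like receptor (chr4:43446431-43455129), which had 711, 567 and 738 in WT M0, 405, 404 and 428 in KO M0, 1243, 1162 and 1156 in WT M2 and 1141, 1127 and 1039 in KO M2. It rose by 0.82 in WT and 1.42 in KO (interaction 0.60 ± 0.12, adjusted p = 0.0087 in DESeq2). Tlr8, a sensor of RNA, rose by 0.53 and 0.94 (0.41 ± 0.09), and Insig2, which restrains sterol synthesis, rose by 0.29 and 0.83 (0.53 ± 0.12). Arl4c, a small GTPase, rose by 1.19 and 1.94 (0.74 ± 0.18). Rab4a, a GTPase of early endosomes, rose by 1.14 and 2.03 from an M0 level of 143, 129 and 162 in WT and 26.2, 38.8 and 37.9 in KO, and stayed lower in KO M2 (124, 143 and 158) than in WT M2 (318, 300 and 343). Pparg, a nuclear receptor of lipid metabolism that IL-4 induces, rose by 2.04 and 2.62 with an interaction of 0.59 ± 0.17 that DESeq2 did not call (adjusted p = 0.12).

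A response was counted as held where the gene's average response was called and the 95% interval of its interaction lay within -0.5 to 0.5 on the log2 scale. This was so for 309 of the 2019 genes (15.3%), 194 that rose and 115 that fell. For 31 the interval lay wholly beyond these limits, and for 1679 it reached over a limit, so for most genes the data do not decide between a held and an altered response. The median half-width of the interval was 0.71, and 0.27 among the held genes.

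The 10 largest held responses included several effectors of M2 macrophages. Slc7a2 went from 74.9, 91.7 and 69.9 normalized counts in WT M0 to 11285, 11936 and 12974 in WT M2, and from 62.5, 50.9 and 59.5 in KO M0 to 9713, 9604 and 9697 in KO M2 (interval -0.18 to 0.46). Angptl2, a secreted angiopoietin-like protein, rose by 4.22 and 4.15 (-0.42 to 0.27), Slc30a4, a zinc transporter, by 3.39 and 3.19 (-0.47 to 0.07), and Tspan5, a tetraspanin, by 3.0 and 2.78 (-0.46 to 0.01). Lpl, lipoprotein lipase, rose by 3.13 and 3.26, and Klf9, a transcription factor, by 3.10 and 2.98. P2ry1, a receptor for ADP, rose by 3.07 and 2.98. Mfge8, a bridging molecule for the uptake of apoptotic cells, rose by 2.96 and 2.84 although its level in M2 was lower in KO (2151, 1953 and 1779 against 2666, 2872 and 2703), and its M0 libraries were lower as well (326, 243 and 257 against 354, 342 and 359). Olfm1, a secreted olfactomedin, rose by 2.76 and 2.71 (-0.28 to 0.19). The last was ENSMUSG00000103174, which had 40.3, 39.3 and 41.4 normalized counts in WT M0 and rose by 2.83 in both genotypes (-0.44 to 0.44).

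Lists with a median near that of all genes (-0.002) included the signalling path itself. Of 21 genes of the IL-4 receptor, JAK-STAT6 and its feedback, none lay below and 1 above 0 at the unadjusted threshold (Pik3r1, 0.49 ± 0.20), with a median of 0.03. Il4ra, the receptor chain, fell in both, with responses of -1.0 and -0.86, and Stat6 had responses of -0.05 and -0.02 with an interval from -0.17 to 0.23. Socs1, the feedback inhibitor, rose by 4.53 and 4.15. Endosome and lysosome genes (median 0.03), fatty acid oxidation and lipid handling (0.02), phagocytic and scavenger receptors (-0.03) and p53 targets and apoptosis regulators (0.02) had 1 to 3 members in each direction at that threshold, of 29, 21, 27 and 29 tested. The endosome and p53 lists each had 3.45% below 0 and 10.3% above. Fatty acid oxidation had 9.52% and the receptors 11.1% in each direction. Of all genes, 4.88% lay below 0 and 4.07% above, so these medians near 0 go with shares that are mostly higher. The small counts of these lists moved too: without WT M0 library 1 there were 5 fatty acid oxidation genes below 0, and without KO M2 library 3 there were 6 receptors above 0. Mertk, a receptor for the uptake of apoptotic cells, fell in both, with responses of -1.34 and -0.90 (0.44 ± 0.12, adjusted p = 0.062 in DESeq2).

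Of the 10 predicted miR-210 targets that the study lists, which it chose on these samples and which are not independent evidence of a direction, 4 lay below (40%) and 2 above 0 (20%) at the unadjusted threshold. The shares of all genes were 4.88% and 4.07%. DESeq2 called 3 of the 10 below 0, Txnrd1, Gsr and Tgm2, against 0.438% of all genes. The median KO against WT difference of the 10 targets was 0.51 in M0 and 0.29 in M2, and their median interaction was 0.03. Of 12 tested from a list of published targets, none passed in either direction, with a median of -0.07. Among them E2f3 had an interaction of -0.20 ± 0.10 and Iscu, an iron-sulfur cluster scaffold, of -0.10 ± 0.16. The plot of list medians sets these beside the other lists.

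**Figure D5:**
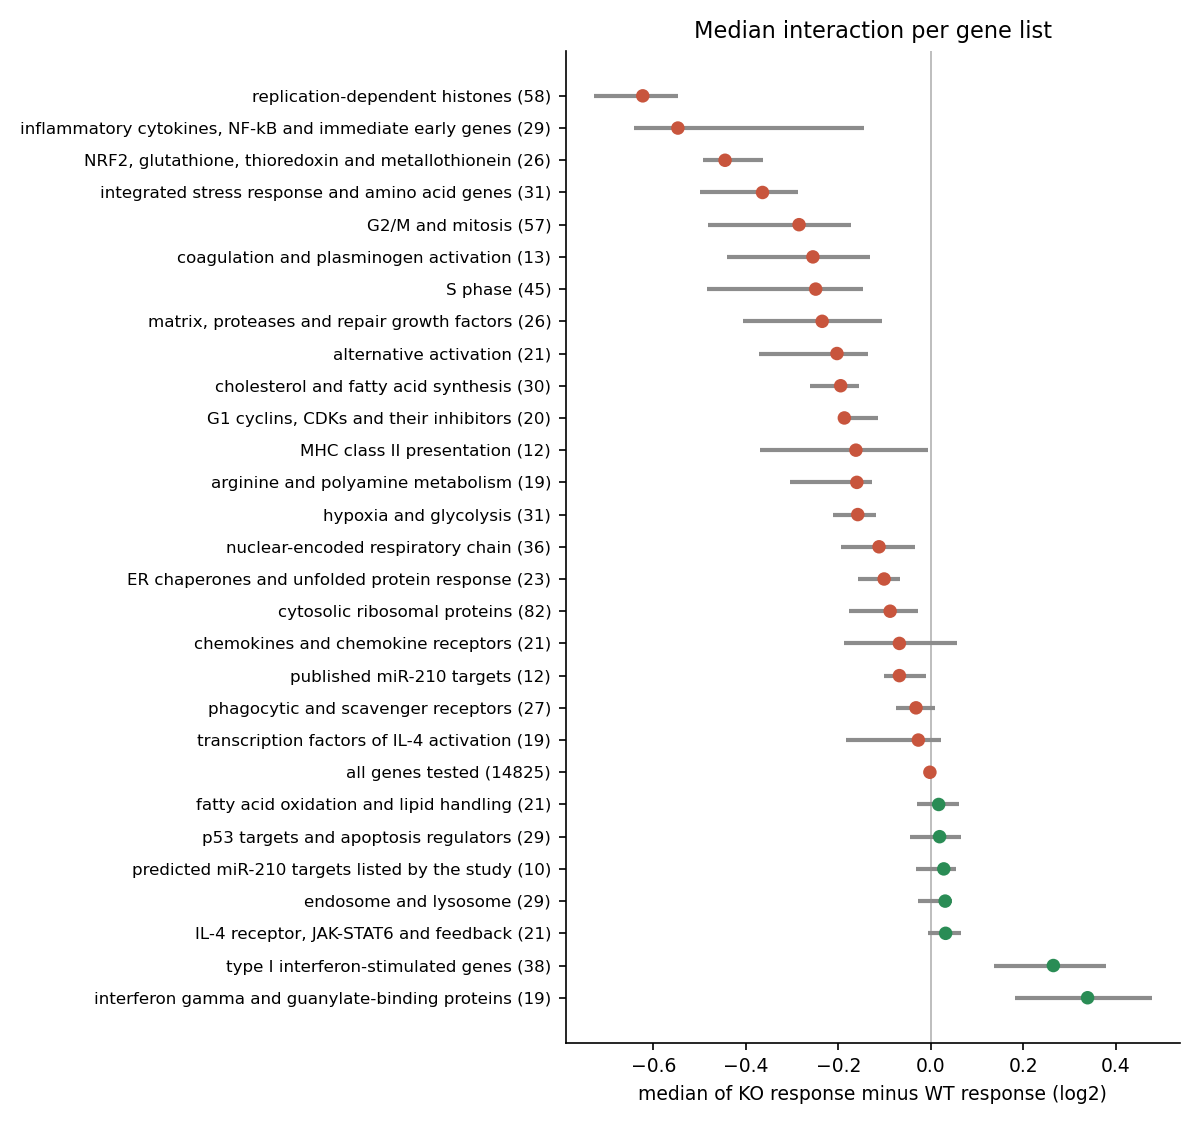
Median interaction (KO response minus WT response, log2) of the genes tested in each list, with the number tested in brackets; the grey line is the range of the median when each library was left out in turn. The histone, inflammatory, NRF2 and stress response lists lie furthest below 0, both interferon lists lie above 0, and the grey line of the inflammatory list reaches to -0.14.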

How the data were processed

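RNA-seq was done on 12 libraries of total RNA after removal of ribosomal RNA, stranded and paired-end, 3 for each of WT M0, WT M2, miR-210 KO M0 and miR-210 KO M2. The authors deposited raw counts per gene for 56941 genes in 4 tables, 1 for each pair of groups. Per the submitters' processing notes and the study's methods, reads were trimmed (Trimmomatic), duplicates were removed (Picard), and the rest was aligned to GRCm39 (STAR) and counted by strand (featureCounts). Removing duplicates without molecular identifiers can lower the counts of the most abundant genes. The 4 deposited tables of normalized values, each on its own scale (DESeq2), were not used. Symbols were matched for 56323 gene IDs and not for 618. Column names give the group but do not tie a column to 1 sample, so libraries 1 to 3 are names only.

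Counts were fitted with edgeR 4.0.16 in R 4.3.3 (TMM normalization, filterByExpr, quasi-likelihood test, 4 group means, 12 libraries), with Benjamini-Hochberg adjustment over 14825 genes. The interaction is the response in KO minus that in WT. Normalized counts are counts scaled to the mean library size. DESeq2 1.42.0 (adjusted p not given for 4605 genes) and limma-voom (limma 3.58.1) were alternatives, with other size factors, filters, each library left out, and the library number as a block. Whether the numbers pair the libraries is not known: same-number correlations of 18 pairs ran from -0.27 to 0.34, and 2 were over 0.1. Such correlations cannot exclude a shared mouse or culture run. On simulated counts of 14687 genes with 200 interactions of 1 (log2), edgeR recovered 64.5% and DESeq2 64%, with 4.44% and 7.25% of calls false. With interactions of 0.5 on 14684 genes they recovered 10.5% and 21.5%, with 8.7% and 17.3% false. Each simulated gene was drawn independently, so shifts shared by many genes of a library were not covered. Standard errors are the log2 difference over the square root of F, or, where F was under 0.1, come from the information matrix of the fit.

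The groups, gene lists and named genes were chosen with earlier results of these data known. Genes were named by rule: 15 of smallest interaction p with a smaller and 15 with a larger response in KO (mean count over 10), called members or the 2 of smallest p in each list, genes the study discusses, and the 10 held genes of largest response. With no edgeR calls, p alone ranked them, and further genes were added after values were seen. Shared sequence was counted as 50-base stretches of the longest transcript found in another gene.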

Additional observations from a re-analysis of the deposited data

Results flagged for a closer look

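In 6 of the named genes every M2 library lay on one side of every M0 library in WT and on the opposite side in KO. In 5 of them M2 lay above M0 in WT and below M0 in KO: Maff (interaction -1.5, responses 0.80 in WT and -0.70 in KO), Agpat4 (-0.648, 0.10 and -0.55), Txnrd1 (-0.754, 0.36 and -0.40), Slc7a11 (-1.233, 0.94 and -0.29) and Pkm (-0.411, 0.21 and -0.21). Ctns, the lysosomal cystine exporter, went the other way (0.574, -0.16 in WT and 0.41 in KO). In WT its groups nearly touched, at 266, 254 and 304 normalized counts in M0 and 251, 235 and 253 in M2, and its WT response was not called (adjusted p = 0.17 in edgeR), while in KO it had 221, 228 and 213 in M0 and 314, 287 and 281 in M2. None of the 6 interactions passed adjustment in edgeR, and DESeq2 called Maff, Agpat4, Txnrd1 and Pkm but not Ctns (adjusted p = 0.052). Agpat4, an acyltransferase of phospholipid synthesis, had 197, 205 and 207 normalized counts in WT M0, 212, 220 and 219 in WT M2, 313, 293 and 332 in KO M0 and 204, 228 and 206 in KO M2, so its opposite order in WT rests on a gap of 5 counts. Over all genes tested, 38 (0.256%) separated in opposite directions, 18 of them with M2 above M0 in WT and 20 with M2 above M0 in KO, and 5412 (36.5%) separated in the same direction.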

How the results depend on the processing

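The number of interaction calls, 0 in edgeR, stayed 0 with RLE size factors, library totals, a minimum count of 50, limma-voom and the library number as a replicate block (1236 genes at an unadjusted p under 0.05 with the block, 1327 without), and was 341 without a filter on low counts and 92 in the DESeq2 Wald test. With 1 library left out it ranged from 0 to 77. The average IL-4 response calls were 2019, 1295 at a minimum count of 50 and 6429 at a limit of 1.2-fold. The held IL-4 responses were 309, and 32 within 1.2-fold. The genotype difference in library position along the IL-4 response, -0.0692, ranged from -0.0823 to -0.0579 with 1 library left out. The interaction of Egr1 ranged from -3.117 to 2.326, the highest without KO M0 library 3. Because the library numbers are not known to pair the libraries, the block is given only here, and it changed no call of the interaction. Totals of 7930525 to 10167695 counts per library limit what can be told for low genes, and batch and group cannot be told apart.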

Other observations

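Antigen presentation, sterol synthesis and translation genes were measured too. Of all genes tested, IL-4 raised 21.0% in WT and 18.4% in KO. At an unadjusted p under 0.05 in edgeR, 4.88% of them had an interaction below 0 and 4.07% above 0. Of 12 MHC class II genes, 4 had an interaction below 0 and 1 above 0 at an unadjusted p under 0.05, among them H2-Aa (-1.10), H2-Ab1 (-0.88), H2-Eb1 (-1.18) and the invariant chain Cd74 (-0.76), with adjusted p of 0.25 to 0.32 in edgeR. The median was -0.16, and -0.37 to -0.01 with 1 library left out. Of 30 cholesterol and fatty acid synthesis genes, IL-4 raised 27 in WT and 24 in KO, 7 lay below 0 at that threshold and none above (4 below without WT M0 library 3 and 9 without WT M2 library 1), and the median was -0.20. Abcg1, a cholesterol exporter, had an interaction of 1.18, which was 0.49 without WT M0 library 1 and was not called (adjusted p = 0.39 in edgeR and 0.57 in DESeq2). Of 82 cytosolic ribosomal protein genes, IL-4 raised 45 in WT and 17 in KO, and the KO count was near the share of all genes. Of the 82, 7 lay below 0 (8.54%) and none above at that threshold, and the median was -0.09. Of 36 nuclear-encoded respiratory chain genes, 3 lay below 0 (8.33%) and none above, with a median of -0.11. Without KO M0 library 2 there were 11 of these and 16 of the ribosomal protein genes, and without KO M0 library 1 there were 0 and 4. No gene of these 4 lists was called by edgeR or DESeq2.

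Of 19 transcription factors of IL-4 activation, 3 lay below 0 and 3 above 0 at the unadjusted threshold (15.8% each, against 4.88% and 4.07% of all genes). Without KO M0 library 3 these counts were 1 and 4. Myc, which drives growth, rose by 2.84 in WT and 1.88 in KO (interaction -0.97), while Maf, a factor of macrophage identity, had an interaction of 0.38. Egr2 had an interaction of -0.65, and -0.27 without KO M0 library 3.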
